A study of Mus musculus with 2 samples.

Results

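Regions recovered with an antibody to phosphorylated HB9 were crowded in some stretches of the mouse genome, and the most crowded stretches are described here. Peaks were counted by their midpoint in fixed 1 Mb windows of chromosomes 1 to 19, and the members were chosen by that count: every peak in a window with 80 or more peaks was kept. This gave 24 windows on 11 chromosomes with 2078 peaks, out of 83676 in the whole list and 83393 on the autosomes. The dense windows thus made up 1.01% of the 2388 complete autosomal windows and held 2.49% of the autosomal peaks. Because the windows were chosen for their number of peaks, that number is a description, and nothing is inferred from it.

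HLXB9 (HB9, MNX1) belongs to the homeodomain transcription factors and takes part in the formation of motor neurons and of insulin-producing β-cells. Homeodomain proteins bind short AT-rich DNA sequences, and phosphorylation can change where and how strongly such a factor acts. In chromatin immunoprecipitation and sequencing (ChIP-seq), DNA bound by the protein is recovered with an antibody and sequenced, and a peak is a region where the recovered DNA exceeds the background.

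The cells were MIN6-4N, a mouse insulinoma line, and both libraries came from cells transfected with an HLXB9 expression plasmid (pcDNA3.1-myc-his-HLXB9), with chromatin taken 48 hours later. One library was made with the anti-HB9PO4 antibody and the other was input without antibody. Untransfected cells and a control antibody were not analysed here, so enrichment in these windows is not shown to be specific to the phosphorylated protein. With 1 library of each kind there is no replicate error. Position, width and score of a peak come from the same set of calls that chose the windows, so the comparisons below are descriptions without a test. Intervals are at 95%, cover counting error only, treat peaks as independent and are therefore too narrow. Each peak also has a score from the authors' caller, taken here as its p-value on a scale of −10 log10, so that 30, the lowest, equals 1e-03, 50 equals 1e-05 and 100 equals 1e-10. How many reads underlie a peak is not known. Positions refer to build mm9, and genes, promoters and sequence were not assigned to the windows, since no mm9 annotation or genome was used here. Cell identity could not be checked against marker genes, because no expression was measured.

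The densest window was chr10:79000001-80000000 and held 122 peaks, and the next 23 held between 80 and 94. The window that follows it on the same chromosome (80000001-81000000) had 91. There were 94 peaks each at chr11:102000001-103000000 and chr8:123000001-124000000, and 92 at chr5:120000001-121000000. Chromosome 2 had windows of 90 peaks (32000001-33000000) and 81 peaks (31000001-32000000). Thus the counts fell off within a narrow range, and 1 window stood apart from the other 23.

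Further windows with 85 to 87 peaks lay on 5 chromosomes. Chromosome 12 (113000001-114000000), chr15:78000001-79000000 and chr4:151000001-152000000 each had a window with 87 peaks. There were 86 peaks in a window at chr4:129000001-130000000 and in one at chr7:52000001-53000000, and 85 in one at chr11:98000001-99000000. Just below these were chr14:70000001-71000000 with 84 peaks and a second window at chr5:115000001-116000000 with 83. Windows with 82 peaks lay at chr11:115000001-116000000 and on chromosome 17 (34000001-35000000 and 56000001-57000000). Those with 81, beside the one on chromosome 2, were chr12:112000001-113000000, chr17:27000001-28000000 and chr4:128000001-129000000. At the limit itself, 80 peaks, were windows at chr11:117000001-118000000, chr4:152000001-153000000 and chr8:87000001-88000000.

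The limit of 80 cut through a continuous range. Just outside it, 4 windows held 79 peaks, on chromosomes 2 (167000001-168000000), 5 (135000001-136000000), 11 (101000001-102000000) and 16 (91000001-92000000). In these 4 windows, peaks had median widths of 707 to 903 bp, and 29.1% to 38.0% of them had a score of 50 or more, against 24.1% of all autosomal peaks. The 3 windows at the limit had median widths of 833.5 to 1098.5 bp and shares of 23.8% to 33.8%. Chromosomes 4 and 11 had 4 dense windows each, chromosome 17 had 3, and chromosomes 2, 5, 8, 10 and 12 had 2 each. Chromosomes 7, 14 and 15 had 1. On the other 8 autosomes the densest window held from 56 peaks, on chromosome 1, to 79, on chromosome 16.

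**Figure D1:**
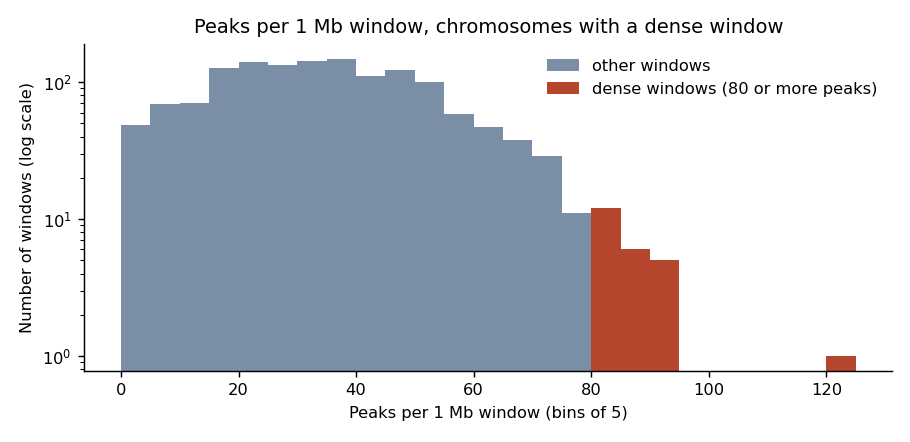
Number of 1 Mb windows (log scale) by peaks per window, in bins of 5, for the complete windows of the 11 chromosomes that had a dense window. The 24 dense windows, in red, continue the upper tail of the other 1397, and a single window with 122 peaks stands apart.

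Relative to their own chromosome, the windows on chromosome 2 stood out most. The window with 90 peaks held 4.74 times the median window of chromosome 2, which was 19 peaks, and its neighbour held 4.26 times that median. The densest window on chromosome 10 held 3.39 times its chromosome's median of 36, and the window on chromosome 14 held 3.36 times a median of 25. On chromosome 11, where the median window held 46 peaks, the 4 dense windows held only 1.74 to 2.04 times the median. Over all 24 windows this ratio had a median of 2.39.

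Peaks in the dense windows were wider than elsewhere and covered more of the sequence. Median width was 959 bp (935 to 977, binomial interval of the median; interquartile range 697 to 1371 bp). In the other windows of the same chromosomes, which held 47712 peaks, it was 652 bp (649 to 655). Of the member peaks, 161 or 7.75% were at least 2 kb wide (Wilson interval 6.67% to 8.98%), against 1.59% (1.49% to 1.71%) in the other windows. Peaks covered a mean of 9.72% of a dense window, with a range of 6.33% to 17.3%, and a mean of 2.57% of the others. Part of this contrast follows from the number of peaks by which the windows were chosen. The mean was 6.42% (range 3.95% to 10.0%) in windows of 60 to 79 peaks on the same chromosomes. In adjoining windows that were not dense it was 5.85% (range 1.23% to 9.54%), so both ranges overlapped that of the dense windows. With their wider peaks, the dense windows held 3.71% of the autosomal sequence covered by peaks within complete windows, against 2.49% of the peaks.

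Coverage was uneven among the members and was highest in 3 windows. Those at chr10:79000001-80000000, chr7:52000001-53000000 and chr10:80000001-81000000 were covered to 17.3%, 16.1% and 15.1%, and no other dense window exceeded 11.7%. Their median peak widths were 1273.5, 1609 and 1484 bp. Together these windows held 299 of the members but 69 of the 161 peaks of 2 kb or more (42.9%). In the remaining 21 windows 5.17% of the peaks were that wide and the median width was 914 bp, so the dense windows had wider peaks than the other windows without these 3 as well. At the low end, the 90 peaks at chr2:32000001-33000000 had a median width of 646 bp, covered 6.33% of the window and included no peak of 2 kb. The median width of 23 of the 24 windows exceeded the 652 bp of the other windows, and this window on chromosome 2 was the exception.

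**Figure D2:**
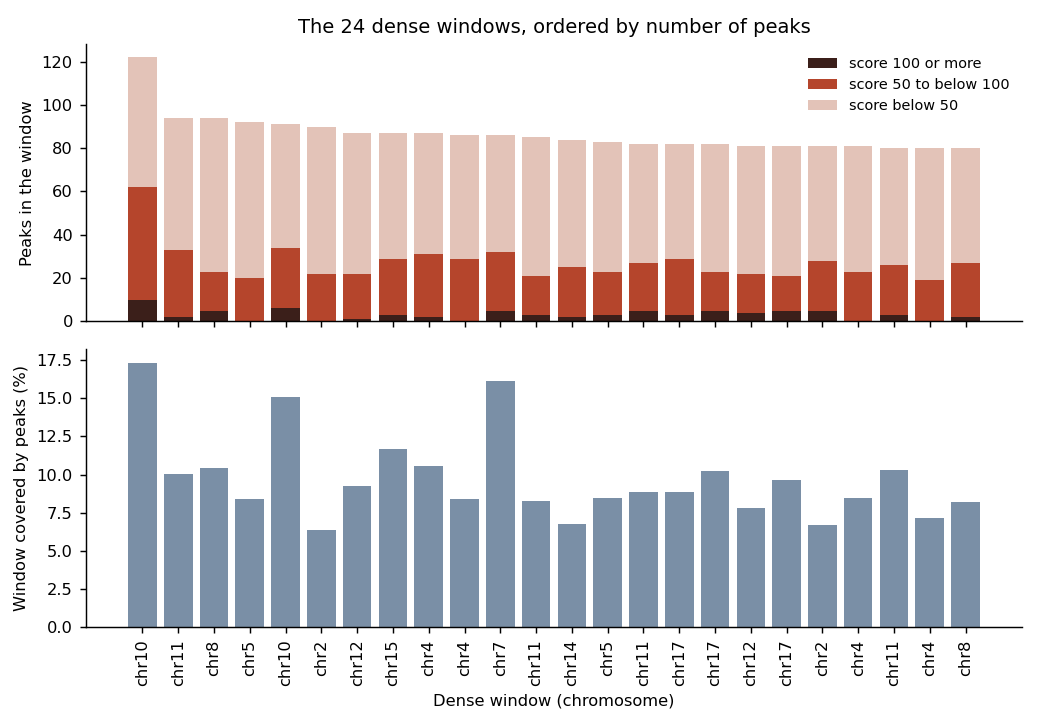
The 24 dense windows in order of their number of peaks, labelled by chromosome. The upper bars give the peaks per window, divided by score, and the lower bars the percentage of the window covered by peaks; the windows with 122, 91 and 86 peaks on chromosomes 10, 10 and 7 have the highest coverage, 17.3%, 15.1% and 16.1%.

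The member peaks also tended to have higher scores, although most of them scored below 50. The median score was 41.6 in the dense windows and 39.3 in the other windows of the same chromosomes. Peaks with a score of 50 or more are termed strong below. Of the members, 651 or 31.3% were strong (29.4% to 33.4%), against 24.1% of all autosomal peaks and 24.3% (23.9% to 24.7%) in the other windows. Scores of 100 or more belonged to 74 members or 3.56% (2.85% to 4.45%), against 1.65% of all autosomal peaks and the same share, 1.65% (1.54% to 1.77%), in the other windows. This share was 2.37% (2.07% to 2.72%) in windows of 60 to 79 peaks on the same chromosomes. In non-dense windows adjoining the dense ones it was 2.27% (1.72% to 2.99%), an interval that overlaps that of the members. Of the 74, 21 lay in the dense windows on chromosomes 7 and 10, which held 299 of the members. The share without these was not compared with that in windows of 60 to 79 peaks. At the other end, 45.1% of the members had a score from 30 to below 40, against 52.5% in the other windows.

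The excess of peaks was larger among those with higher scores. A dense window held a mean of 86.6 peaks and another window of the same chromosomes 34.2, a ratio of 2.54 that the choice of windows fixes. For peaks with a score below 40 the ratio was 2.18 (exact interval 2.04 to 2.33). It was 3.27 (3.02 to 3.54) for strong peaks and 5.47 (4.25 to 6.94) for a score of 100 or more. Peaks of every score were counted when the windows were chosen, so the choice raises each of these ratios. They restate the shares given above and are not separate support for them. At the highest scores the shares were close: scores of 200 or more belonged to 2 members, or 0.0962% (0.0264% to 0.350%), against 0.0964% (0.0723% to 0.129%) in the other windows. With 2 peaks, a difference of either sign was not detectable.

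The windows differed from each other in this respect too. In the densest window at chr10:79000001-80000000, 62 of the 122 peaks, or 50.8%, were strong and 10 reached a score of 100, the highest numbers of any autosomal window. The following window on chromosome 10 ranked second by the number of strong peaks, with 34 of 91 (37.4%). The window at chr5:120000001-121000000 had a similar number of peaks, 92, but 20 of them were strong (21.7%) and none reached 100. Likewise no peak reached 100 in the window with 90 peaks on chromosome 2 or in 3 of the 4 windows on chromosome 4 (128000001-129000000, 129000001-130000000 and 152000001-153000000). A dense window by number was therefore not always among the richest in strong peaks: 12 of the 24 were among the 24 autosomal windows with the most strong peaks (ties included), and 22 were among the first 100. Among the first 24 by peaks with a score below 40 there were 14 of them. Across the 24 windows the share of strong peaks had a Spearman correlation of 0.14 with the number of peaks and of 0.54 with the median width. All 24 points come from 1 pair of libraries and 1 set of calls.

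Width exceeded that of the other windows in every class of score. Among peaks with a score from 30 to below 40, the median was 836.5 bp (799 to 871) in 938 members and 581 bp (577 to 585) in the other windows. It was 920 bp (870 to 968) against 668 bp (662 to 674) from 40 to below 50, and 1180 bp (1142 to 1266) against 792 bp (784 to 800) from 50 to below 100. The 74 members above these classes, from 100 upward, had a median of 1860.5 bp (1673 to 2051), against 1170.5 bp (1127 to 1231). The difference in width from the other windows was thus also present among peaks of like score. It was smaller against windows of 60 to 79 peaks, where the medians were 723, 816, 1016.5 and 1456 bp by rising class. In non-dense windows adjoining the dense ones, the intervals from 40 to below 50 (811 to 891 bp) and from 100 upward (1541 to 2020 bp) overlapped those of the members. In the other classes they were apart.

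These properties changed gradually with the number of peaks per window, with the dense windows at the end of the range. On the same 11 chromosomes, the median width was 490 bp in windows with 1 to 19 peaks, 579 bp with 20 to 39, 698 bp with 40 to 59 and 823 bp with 60 to 79. The share of strong peaks was 18.6%, 21.6%, 25.6% and 29.2% in these classes. The 125 windows with 60 to 79 peaks are the most similar to the dense ones. For them the interval of the share, 28.3% to 30.2%, overlapped that of the dense windows, whereas the intervals of the median width, 811 to 835 bp and 935 to 977 bp, were apart. The share of peaks of 2 kb or more was 4.13% (3.73% to 4.58%) there, below the 7.75% of the members.

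**Figure D3:**
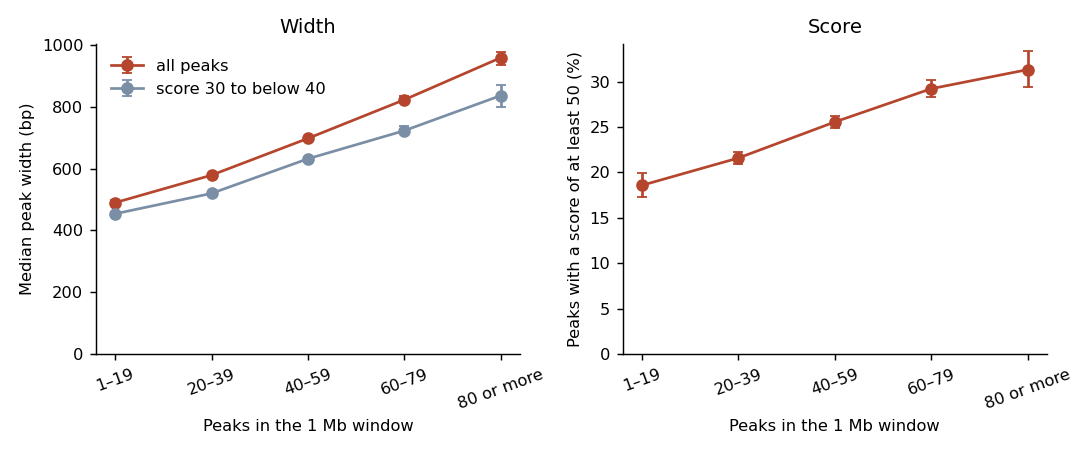
Median peak width (left, for all peaks and for peaks with a score from 30 to below 40) and percentage of strong peaks (score of 50 or more) (right) by the number of peaks in the 1 Mb window, on the 11 chromosomes with a dense window. Bars are 95% intervals from the binomial distribution; width rises from 490 to 959 bp and the share from 18.6% to 31.3%.

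The difference in width was seen on each chromosome by itself, and that in score on most. Median width was larger in the dense windows than in the other windows of the same chromosome on 11 of 11 chromosomes, by 1.19 times on chromosome 14 to 2.39 times on chromosome 7. For peaks with a score from 30 to below 40 it was also larger on 11 of 11, and the intervals were apart on 10. Chromosome 14 was the exception, with 633 bp (504 to 720) in its 1 dense window against 509.5 bp (497 to 521). The largest values were 1306 bp against 588 bp on chromosome 7 and 1230 bp against 575 bp on chromosome 10. The share of strong peaks was higher in the dense windows on 10 of 11 chromosomes, but the intervals were apart on 3 only. These were chromosome 10 with 45.1% against 23.6%, chromosome 7 with 37.2% against 25.2% and chromosome 4 with 30.5% against 24.4%. On chromosome 5 the share was 24.6% in the dense windows and 24.97% in the others.

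**Figure D4:**
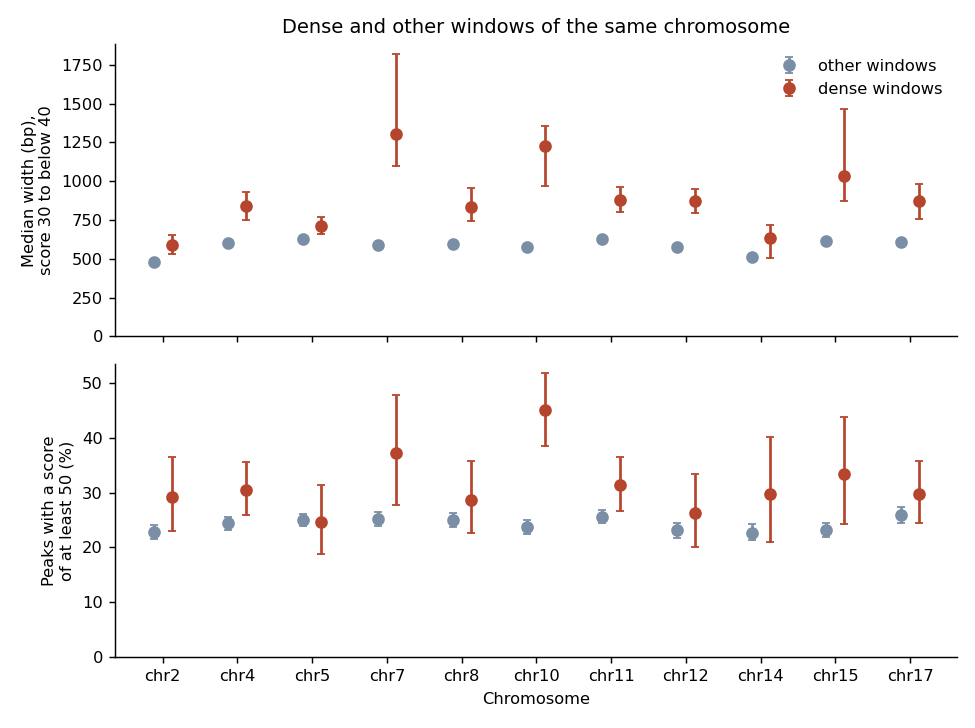
Median width of peaks with a score from 30 to below 40 (upper) and percentage of strong peaks (score of 50 or more) (lower) in the dense and the other windows of each of the 11 chromosomes. Bars are 95% intervals; the widths lie above those of the other windows on all 11 chromosomes, and the share lies below on chromosome 5 only.

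Of the dense windows, 6 lie in longer stretches in which peaks were wide: distal chromosome 4 (4 windows), chromosome 7 before 58 Mb and chromosome 15 beyond 72 Mb. Outside the dense windows, median width in these stretches was 907.5, 891.5 and 824 bp, against 619, 611 and 598 bp on the rest of the same chromosomes. Inside the dense windows of the same stretches it was 943.5, 1609 and 1242 bp. On chromosome 4 the width in the dense windows was thus close to that of the stretch around them. The 507 peaks of the 6 dense windows had a median width of 1040 bp, against 931 bp for the 1571 peaks of the other 18 windows, and 32.1% against 31.1% were strong. The wider peaks of the dense windows were thus not limited to these stretches, which were picked from the same list.

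Inside the dense windows, peaks were spread about as evenly as in the others, given their number. All of the 240 stretches of 100 kb within them held a peak except 1, at chr11:102000001-103000000, while 12.1% of the 13970 stretches in the other windows were empty, a contrast that follows from the number of peaks by which the windows were chosen. The fullest stretch, with 18 peaks, was in the window with 87 peaks on chromosome 12. In the densest window on chromosome 10, each stretch held 8 to 17 peaks, and the longest part without a peak was 36.4 kb. The variance of the 10 counts within a window over their mean, which does not grow with the number of peaks when they are scattered at random, had a median of 0.981 in the dense windows and 1.04 in the others. It ranged from 0.264 in the window at chr4:129000001-130000000, where each stretch held 7 to 11 peaks, to 2.65 at chr17:56000001-57000000. There, 2 stretches held 1 peak each and another held 15. On chromosome 11 the window with 94 peaks had a gap of 118 kb followed by a 1876 bp peak with a score of 114.3 (102806931-102808806), its highest.

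Neighbouring peaks in these windows were closer than in the others, and a larger number of peaks by itself brings them closer. Whether the shares and runs below exceed what the number alone would give was not tested. The next peak followed within 10 kb for 62.4% of the members (60.3% to 64.4%), against 36.9% in the other windows. It followed within 1 kb for 12.8% (11.4% to 14.3%), against 5.89%. These shares were 52.8% and 9.02% in windows of 60 to 79 peaks on the same chromosomes. In adjoining windows that were not dense they were 50.4% and 8.91%. The median distance to the next peak was 6.62 kb in the dense windows and 15.7 kb in the other windows. Runs of at least 3 peaks separated by no more than 1 kb numbered 27 in 16 of the windows and held 84 members (4.04%), against 1.21% of the peaks in the other windows. The 3 runs with the most peaks had 4 each, at chr17:27873872-27878872, chr4:129494779-129500224 and chr5:120751637-120754626. The windows on chromosome 10 held 6 runs of 3. A run at chr8:123607180-123610116 contained a peak with a score of 178.3, among the highest of the members.

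Windows next to the dense ones also held many peaks. Of the 24 windows, 10 formed 5 adjoining pairs, on chromosomes 2, 4 (2 pairs), 10 and 12. Of the 48 flanking positions, 10 were thus dense by the rule and are left out here. In the remaining 38 the median was 59.5 peaks, against 33 in the other windows of the same chromosomes, and 36 of the 38 were above the median of their chromosome. At a distance of 2 Mb the median, also without dense windows, was 53 peaks on either side. The largest steps between a dense and an adjoining window were on chromosome 10, from 47 to 122 peaks at the lower side of the pair and from 91 to 33 at its upper side, and on chromosome 17, where the window with 82 peaks (56000001-57000000) followed one with 24. In the 37 adjoining windows that were not themselves dense, the median width was 857.5 bp (836 to 879) and 30.2% of the peaks were strong (28.3% to 32.2%). This share lay within the interval of the members, and the width between those of the members and the other windows.

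**Figure D5:**
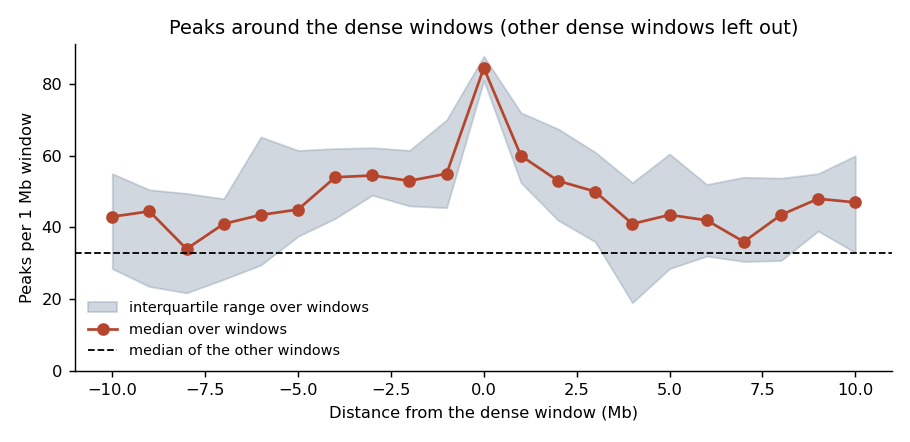
Peaks per 1 Mb window at distances up to 10 Mb from the dense windows, as the median (points) and interquartile range (band) over the 17 to 24 windows that lie between the first and last peak of the chromosome and, beside the centre, are not dense themselves. The median falls from 84.5 peaks at the centre, which the rule fixed, to 55 and 60 at 1 Mb; the dashed line is the median of the other windows, 33 peaks.

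Many dense windows were near the distal chromosome end. Of the 24, 14 lay in the last 25% of the span between the first and last peak of their chromosome and 2 in the first 25%, both on chromosome 2. Within 10 Mb of the last peak there were 7 windows (29.2%), while 7.74% of all complete windows of these chromosomes lie there. Those 7 were the windows at chr4:151000001-153000000, chr8:123000001-124000000, chromosome 11 (115000001-116000000 and 117000001-118000000) and chr12:112000001-114000000. The closest, on chromosome 4, ended 2.63 Mb before the last peak.

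Among single peaks, 2 members stood above the rest by score. A 1796 bp peak at chr11:115273981-115275776 scored 426.2, which ranked 15 on the autosomes, and a 2226 bp peak at chr17:56650124-56652349 scored 276.0. The next 8 scored between 147.9 and 185.2. They comprised 3 on chromosome 10 (79773524-79776204, 80039194-80041408 and 79438067-79441000) and 1 each at chr8:123608225-123609522, chr7:52272238-52274288, chr12:112512355-112514173, chr11:115884779-115886259 and chr5:115456757-115458785. Their widths were 1298 to 2934 bp. The window with 92 peaks on chromosome 5 had none of these, and its highest score was 98.1, in a peak of 1665 bp (120746490-120748154).

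The widest members had low to moderate scores. The window on chromosome 7 held 3 of the 5 widest, with 6930 bp (52957643-52964572), 6323 bp (52532185-52538507) and 5082 bp (52260501-52265582), and with scores of 31.5, 44.4 and 37.1. The others were a peak of 6084 bp at chr17:27518116-27524199 with a score of 54.1 and one of 4315 bp at chr10:80777623-80781937 with a score of 32.1. In the densest window the widest peak spanned 3589 bp (79555721-79559309, score 44.6). In those with 94 peaks it was 3723 bp on chromosome 11 (102170155-102173877, score 50.8) and 2910 bp on chromosome 8 (123784570-123787479, score 102.3). On chromosome 5 the widest peak of the window with 92 peaks was 2319 bp (120880607-120882925, score 33.7). The peak with the highest score and the widest peak thus differed in each of these 5 windows.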

How the data were processed

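From MIN6-4N cells, 1 ChIP and 1 input library were sequenced in reads of 36 bp. Per the submitters' processing notes, the authors used MACS (written as 1.42) and build mm9. For the aligner, the filters and the tag numbers, nothing is given in the sources used here. The deposited list has no header and gives each peak's position and a score, set by the authors' caller, which is read from its range as a p-value on a scale of −10 log10. That it sets the ChIP against the input is inferred from the labels.

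Peaks were assigned to windows by midpoint. A window is complete when it lies between the first and last peak of its chromosome, and the 892 autosomal peaks outside such windows were left out of the comparisons. Widths, scores, coverage and spacing were summarised in Python 3.11.15 with pandas 2.3.3, numpy 2.4.6 and scipy 1.17.1 and drawn with matplotlib 3.10.9, after the scripts had been checked on simulated peaks. Windows and peaks were named by rule: each dense window, the peak with the highest score and the widest peak in the 5 densest windows, and the 10 highest and 5 widest members. Members and comparisons were chosen with earlier results of these data known. Gene lists and motifs that had been planned were not run, because they need mm9 annotation or sequence, which was not used here. Coordinates are 1-based.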

Additional observations from a re-analysis of the deposited data

How the results depend on the processing

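The number of dense windows and of members depends on the limit: a minimum of 70 peaks gave 76 windows with 5890 peaks, and a minimum of 90 gave 6 windows with 583. Joining peaks up to 1 kb apart before counting left 3 windows with 264 regions at the same limit of 80. Shifting the windows by 500 kb gave 24 windows with 2083 peaks, and 49.95% of the members were also in one of those. A shifted window shares at most 500 kb with an original one, and 20 of the 24 dense windows overlapped a dense shifted window. The median width was 893 bp with a minimum of 70 peaks, 933 bp without the chromosome 10 windows, 931 bp without the windows on chromosomes 4, 7 and 15 and 914 bp without those on chromosomes 7 and 10. The share followed by a peak within 10 kb was 58.6% with a minimum of 70 and 65.2% with a minimum of 90. The ratio of peaks per window was 3.27 for scores of at least 50, 5.47 for at least 100, 2.18 below 40 and 2.35 with peaks joined. The 2 last sets of left-out windows and the ratio below a score of 40 were chosen after seeing the data. The mean coverage of a dense window was 7.98% with a minimum of 70 peaks, 11.3% with a minimum of 90 and between 8.80% and 9.51% in the other alternatives. The share of members with a score of at least 50 stayed within its Wilson interval in each alternative run for it. It was 29.76% without the chromosome 10 windows and 29.40% without those on chromosomes 7 and 10. The latter was just above the lower bound of 29.37% and close to the 29.2% in windows of 60 to 79 peaks. No library could be left out and no paired analysis was possible because there is 1 library per group. Since tag numbers are unknown, sequence between peaks is not shown to be unbound.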
